A study of Mus musculus with 16 samples.

Results

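The genes described here are 9 calcium handling genes of the heart muscle cell: Ryr2, Casq2, Cacna1c, Atp2a2, Pln, Slc8a1, Itpr1, Itpr2 and Camk2d. They were taken by symbol, and each matched 1 Ensembl identifier among the 55487 gene identifiers with counts. Their RNA was measured by sequencing in slices of the adult mouse heart kept in culture, from which the apex and base had been cut away. The study asked whether the cardiac long noncoding RNA Swhtr, transcribed next to Nkx2-5, is needed for the response of heart tissue to hypoxic stress.

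The 16 libraries formed 4 groups of 4. Swhtr null treated slices carried a transcriptional stop signal (3xpA) on both Swhtr alleles and spent 7 days at 3% oxygen, then 7 days at 21% oxygen. Swhtr null untreated slices had the same alleles and stayed at 21% oxygen for 14 days. WT treated and WT untreated slices, labelled C57Bl6/J, went through the same 2 schedules with intact Swhtr. All slices came from males of 8 weeks, 4 mice per genotype. The mutation was made in embryonic stem cells of a mixed background and the mutant mice were backcrossed to C57BL6J. All their cells lack the full transcript from the start of development, so its loss is neither restricted to cardiomyocytes nor to the time of hypoxia. Each genotype has 8 libraries from 4 mice, so mice must be shared between libraries, and the labels do not say how. P-values therefore measure the spread between these libraries, part of which may be technical.

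In a cardiomyocyte, a small inflow through the L-type channel opens the ryanodine receptor of the sarcoplasmic reticulum (SR), the calcium store, and the calcium released there drives contraction. The SR calcium pump, held back by phospholamban, refills the store, while the sodium-calcium exchanger expels the calcium that entered. Several of the 9 genes also work outside cardiomyocytes: the SR pump gene, the IP3 receptors and the calcium/calmodulin kinase are used by most cells, and the L-type channel also by smooth muscle.

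Counts summed to between 17830351 and 29941903 per library, and levels below are counts scaled to library size (CPM) after normalization by the trimmed mean of M-values. All 9 genes passed the filter of 10 counts in total. After 14 days of culture the slices held little cardiomyocyte RNA. The 15 cardiomyocyte markers summed to 13.1 to 111 CPM in Swhtr null treated, 9.28 to 14.6 CPM in Swhtr null untreated, 10.2 to 59.0 CPM in WT treated and 8.87 to 23.4 CPM in WT untreated slices. Of these markers, Myh6 was at 0.141 CPM or less in the 4 Swhtr null untreated libraries, and Nppa had no count in 12 of 16 libraries. Others were higher in Swhtr null untreated libraries, such as Tnni3 (2.07 to 2.81 CPM) and Tnnc1 (1.88 to 2.79 CPM). The 10 fibroblast markers summed to at least 23551 CPM and the 12 macrophage and monocyte markers to at least 4099 CPM in every library. The 9 genes are thus called cardiomyocyte genes by their known roles, in cultures low in cardiomyocyte RNA. Swhtr null treated replicate 2 stood apart, with the highest cardiomyocyte sum (111 CPM) and the lowest macrophage sum (4099 CPM). Several changes of the 9 genes are given without it as well. Marker counts and changes of the other calcium genes are not. In such bulk tissue, fewer cells of a type and less RNA per cell cannot be told apart.

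Promoter sequences were at hand for 7 of the 9 genes (RefSeq, GRCm38.p6, 250 bases before to 50 after the annotated start). Those of Casq2 (chr3:102086165-102086464, plus strand), Pln (chr10:53337436-53337735, plus strand) and Ryr2 (chr13:12106896-12107195, minus strand) are printed because these genes are the least abundant and the most variable of the 9. Capitals mark matches on either strand to the NKX2-5 core AAGTG, the GATA motif AGATAA, the MEF2 site and the CArG box.
Casq2 promoter: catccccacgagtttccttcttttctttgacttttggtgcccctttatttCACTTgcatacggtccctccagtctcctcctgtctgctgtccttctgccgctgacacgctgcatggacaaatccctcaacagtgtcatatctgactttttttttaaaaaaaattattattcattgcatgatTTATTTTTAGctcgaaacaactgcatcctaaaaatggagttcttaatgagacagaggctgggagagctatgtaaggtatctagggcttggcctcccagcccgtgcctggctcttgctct
Pln promoter: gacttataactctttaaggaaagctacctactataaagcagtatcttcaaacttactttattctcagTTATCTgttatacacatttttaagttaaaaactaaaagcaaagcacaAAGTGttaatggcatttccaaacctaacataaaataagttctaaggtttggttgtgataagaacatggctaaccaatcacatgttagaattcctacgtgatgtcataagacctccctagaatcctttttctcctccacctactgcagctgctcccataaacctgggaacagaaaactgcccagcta
Ryr2 promoter: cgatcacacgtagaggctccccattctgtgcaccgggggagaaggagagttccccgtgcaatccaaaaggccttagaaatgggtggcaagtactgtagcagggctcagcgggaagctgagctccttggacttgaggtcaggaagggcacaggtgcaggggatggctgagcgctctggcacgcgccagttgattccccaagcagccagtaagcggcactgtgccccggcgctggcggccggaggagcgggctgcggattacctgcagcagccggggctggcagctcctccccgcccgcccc
The Casq2 window held a match to AAGTG at position -200 on the minus strand and a MEF2 site at -69, whose letters match the pattern on both strands. The Pln window held AAGTG at -136 and, on the minus strand, AGATAA at -183. It also held the TATA box letters TATAAA at -219, left in lower case. None of these motifs was in the Ryr2 window. Among 32851 mouse promoter windows of this length, 46.4% held AAGTG, 11.2% held AGATAA and 3.19% held a MEF2 site. The sense strand of 8.32% held TATAAA, and 1.63% held a CArG box. Outside these genes, the Slc8a1 window held AGATAA at -68, and the windows of Camk2d, Cacna1c and Itpr2 held none of the motifs.

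Per kb of annotated exon, Atp2a2, which encodes the SR calcium pump SERCA2, was by far the most abundant of the 9, with a mean of 48.9 CPM per kb over the 16 libraries (41.6 to 56.2). Itpr1 (mean 4.42), Itpr2 (4.08), Slc8a1 (3.66) and Camk2d (3.59 CPM per kb) followed with overlapping ranges. Cacna1c came next at 1.71 CPM per kb (1.11 to 3.02), below every library of Camk2d (3.29 to 3.94). Casq2, at 0.946 CPM per kb (0.422 to 2.56), overlapped Cacna1c. Pln (mean 0.0762, at most 0.263) and Ryr2 (mean 0.0312, at most 0.166 CPM per kb) lay at the bottom and overlapped each other. The relative spread over libraries was widest for the genes at the bottom. The highest library exceeded the lowest 1.20-fold for Camk2d, 1.35-fold for Atp2a2 and 2.72-fold for Cacna1c on this scale. For Casq2 it was 6.06-fold and for Ryr2 30.4-fold, while Pln had no count in 4 libraries, which allows up to 0.125 to 0.154 CPM there (3 counts, counting error only).

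Within their families, per kb, Atp2a2 made up 88.0% to 95.7% of the 3 SERCA genes and Slc8a1, the cardiac sodium-calcium exchanger, 95.6% to 98.5% of the 3 exchanger genes in single libraries. Atp2a3, the SERCA gene of blood and endothelial cells, had a mean of 4.41 CPM per kb, and Atp2a1, that of fast skeletal muscle, 0.124 CPM per kb. Camk2d, the main cardiac isoform of the kinase, held 24.2% to 28.2% of its family's level, below Camk2g with 62.5% to 69.1%. Among the IP3 receptors Itpr3 was the most abundant in the mean (6.19 CPM per kb, 34.0% to 48.0% of the family). Cacna1c held 62.6% to 74.8% of the sum with Cacna1d. Casq2 held 53.3% to 88.6% of the sum with Casq1, the skeletal muscle calsequestrin. Ryr2 held between 20.9% and 86.2% of the ryanodine receptors, whose other members had still lower means (Ryr1 0.0105 and Ryr3 0.00958 CPM per kb). Sln, which encodes the atrial SERCA inhibitor sarcolipin, had counts in 1 of 16 libraries.

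**Figure D1:**
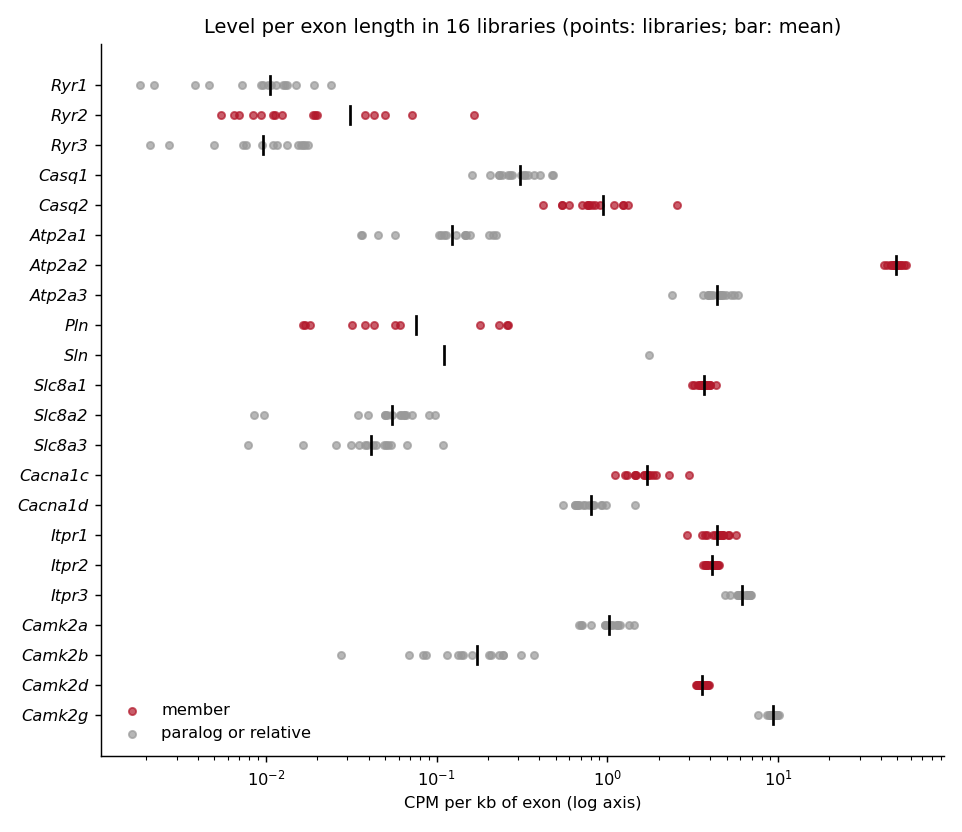
Level of the 9 genes (red) and their paralogs or relatives (grey), in CPM per kb of annotated exon on a log axis. Points are the 16 libraries (those at 0 are not drawn) and bars the mean. Atp2a2 averaged 48.9 and Ryr2 0.0312 CPM per kb.

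In Swhtr null slices, treated against untreated, 2 of the 9 genes (Itpr1 and Atp2a2) were higher by adjusted p alone, and 0 of 9 when a fold threshold was added. All 9 had a positive log2 fold change, with a median of 0.48, against 0.01 over the 24971 genes tested. 0 of 9 passed both thresholds of edgeR's quasi-likelihood test (Benjamini-Hochberg adjusted p under 0.05 over all genes and an absolute log2 fold change over 0.58), which 0.621% of genes did. By adjusted p alone, 2.18% of all genes passed in either direction. At an unadjusted p under 0.05, 6 of 9 were higher (Ryr2, Casq2, Cacna1c, Atp2a2, Pln and Itpr1) and 0 lower, where 8.69% of genes were higher and 7.84% lower. In Itpr1 and Atp2a2 every treated library was above every untreated one, a separation seen in 3.54% of genes. DESeq2, which the paper used, called 464 genes, among the 15764 to which it gave an adjusted p. They included 3 of the 9: Ryr2 (adjusted p = 0.0075), Casq2 (0.042) and Cacna1c (0.0079). With limma, 178 genes and 0 of the 9 were called.

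Ryr2 encodes the release channel of the SR (ENSMUSG00000021313, chromosome 13, 11553102 to 12106945 of GRCm38). Its level was 1.24, 4.79, 2.07 and 0.318 CPM in Swhtr null treated replicates 1 to 4, and 0.188, 0.562, 0.200 and 0.359 CPM in Swhtr null untreated slices. Replicates 1 to 3 lay above all untreated libraries, and replicate 4 among them. The log2 fold change was 2.70 (SE 0.78, adjusted p = 0.092 from edgeR). It rests on 228 counts in the treated libraries (exact Poisson 95% interval 199 to 260) and 25 in the untreated ones (16.2 to 36.9). These intervals cover counting error only, not the spread between libraries. Treated replicate 2 alone held 132 of the counts. In WT treated slices Ryr2 was at 0.271, 0.571, 0.543 and 1.43 CPM, against 0.157, 1.10, 0.327 and 0.241 CPM in WT untreated slices. Those groups overlapped, with a log2 fold change of 0.64 (SE 0.78, adjusted p = 0.999).

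Deviations of same-numbered Swhtr null libraries from their group means correlated unevenly, at 0.15, 0.59, 0.26 and 0.40 for replicates 1 to 4. Treated replicate 3 correlated more, at 0.33, with an untreated library of another number. The numbers do not show which libraries share a mouse. A block by replicate number gave each number the same effect in both genotypes, although these come from different mice. With it, Ryr2 was called in Swhtr null slices (log2 fold change 2.57, adjusted p = 0.029 from edgeR). Ryr2 was also called with the block taken within each genotype (2.41, adjusted p = 0.015). The change was 1.90 without Swhtr null treated replicate 2 (adjusted p = 0.23) and 1.23 without replicates 2 and 3 (adjusted p = 0.47). It was 3.05 and called without replicate 4 (adjusted p = 0.027). Of the 15 cardiomyocyte markers, 14 were higher in Swhtr null treated slices, 8 of them at an unadjusted p under 0.05. Tnnt2, cardiac troponin T, was at 5.86, 32.1, 21.5 and 3.06 CPM in the treated libraries, against 1.74, 4.78, 1.95 and 0.821 CPM in the untreated ones. The 15 markers summed to 15.3, 111, 82.4 and 13.1 CPM in treated and 9.79, 14.6, 14.4 and 9.28 CPM in untreated libraries. Treated replicates 2 and 3 thus held most of the rise. In treated replicate 1 the markers were mixed. Myh6 was at 0.778 CPM, above its untreated range (0.0513 to 0.141 CPM), and Tnni3 at 1.69 CPM, below its own (2.07 to 2.81 CPM). The part of cardiomyocyte RNA content in the Ryr2 difference was not tested.

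Casq2 encodes calsequestrin 2, which binds calcium inside the SR (ENSMUSG00000027861, chromosome 3, 102086415 to 102146514). It was at 7.01, 3.37, 2.07 and 3.62 CPM in Swhtr null treated replicates 1 to 4, and at 2.12, 2.14, 1.95 and 1.49 CPM in untreated ones. The high library was replicate 1, not replicate 2, and replicate 3 lay within the untreated range. The log2 fold change was 1.05 (SE 0.34, adjusted p = 0.12 from edgeR). It was 0.65 without treated replicate 1 (adjusted p = 0.35), and 1.27 and called without replicate 3 (adjusted p = 0.036). With the replicate block it was 0.99 (adjusted p = 0.051), and with the block within genotype 0.96 and called (adjusted p = 0.048). WT treated slices had 1.63, 3.38, 2.21 and 2.49 CPM, against 2.99, 2.31, 1.49 and 1.16 CPM in WT untreated slices. The WT groups overlapped (log2 fold change 0.29, SE 0.34, adjusted p = 0.999).

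Of 10 smooth muscle and pericyte markers, 6 were highest of the Swhtr null treated group in replicate 1, the library with the highest Casq2, and 2, Smtn and Kcnj8, were lowest there. Rgs5 and Pdgfrb were highest in other libraries, and the 10 markers summed to 1301 CPM in replicate 1 and 1292 CPM in replicate 2. Myh11, smooth muscle myosin, was at 63.6, 24.7, 25.1 and 39.0 CPM in Swhtr null treated slices, and at 23.1, 23.7, 15.2 and 7.74 CPM in untreated ones. Of the 10 markers, 9 were higher in treated Swhtr null slices, 4 at an unadjusted p under 0.05, with sums of 1034 to 1301 CPM, against 781 to 1026 CPM. Their part in the Casq2 difference was not tested.

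Cacna1c encodes the pore of the cardiac L-type channel (ENSMUSG00000051331, chromosome 6, 118587240 to 119196418). Swhtr null treated slices had 48.9, 64.1, 36.0 and 40.8 CPM, and untreated ones 31.3, 39.4, 27.0 and 23.5 CPM. Each treated library exceeded its same-numbered untreated library, although replicate 3 was under untreated replicate 2. The log2 fold change was 0.65 (SE 0.18, adjusted p = 0.082 from edgeR). It was called with the replicate block (0.64, adjusted p = 0.0041) and with the block within genotype (0.64, adjusted p = 2.23e-06). Without treated replicate 3 it was 0.76 and called (adjusted p = 0.031), likewise without untreated replicate 2 (0.80, adjusted p = 0.019), while without treated replicate 2 it was 0.47 (adjusted p = 0.19). WT slices had 36.7, 37.6, 35.0 and 30.7 CPM treated and 36.4, 30.7, 34.7 and 27.5 CPM untreated. The WT difference was 0.11 (SE 0.18, adjusted p = 0.999).

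Atp2a2 (ENSMUSG00000029467, chromosome 5, 122453513 to 122502225) was at 334, 342, 320 and 318 CPM in Swhtr null treated libraries and at 292, 306, 253 and 263 CPM in untreated ones. All 4 treated libraries lay above all 4 untreated libraries, by a small margin. The log2 fold change of 0.24 (SE 0.06, adjusted p = 0.0495 from edgeR) was below the fold threshold. Its adjusted p was 0.011 without untreated replicate 2, and between 0.053 and 0.19 with each of the other 15 libraries left out. It was 0.0070 with the replicate block, 0.0046 with the block within genotype and 0.0057 with DESeq2, and all 4 same-numbered pairs were higher in the treated library. WT treated slices had 292, 306, 293 and 289 CPM, and WT untreated slices 293, 297, 280 and 277 CPM. These groups overlapped (log2 fold change 0.04, SE 0.06).

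Pln encodes phospholamban, the inhibitor of SERCA2 (ENSMUSG00000038583, chromosome 10, 53337667 to 53345987). It was counted 1, 20, 19 and 3 times in Swhtr null treated libraries, and 0, 3, 1 and 0 times in untreated ones. In WT it had 11, 2, 0 and 17 counts in treated and 2, 3, 1 and 0 counts in untreated libraries. High libraries thus occurred in both treated groups, and each group had libraries near 0. The log2 fold change was 2.79 in Swhtr null (SE 1.17, adjusted p = 0.24 from edgeR) and 2.02 in WT slices (SE 1.12, adjusted p = 0.999). Without Swhtr null treated replicates 2 and 3 it was 0.63. In total 43 counts in Swhtr null treated (Poisson interval, counting error only, 31.1 to 57.9) stood against 4 in untreated slices (1.09 to 10.2). These Pln counts are too few for a precise fold. Of its 2759 exonic bases, 1644 lie opposite exons of Gm47644, and without a stated strand setting reads from the 2 genes cannot be told apart.

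Itpr1, the IP3-gated release channel of the endoplasmic reticulum (ENSMUSG00000030102, chromosome 6, 108213096 to 108551109), had the smallest p of the 9. It was at 95.1, 104, 84.5 and 93.9 CPM in Swhtr null treated slices, and at 69.8, 81.1, 65.9 and 53.5 CPM in untreated ones. The groups did not overlap, and the log2 fold change of 0.48 (SE 0.10, adjusted p = 0.017 from edgeR) was below the fold threshold. Without untreated replicate 2 it was 0.58 and called (adjusted p = 0.0026). The adjusted p was 0.051 and 0.058 without treated replicates 1 and 2, 0.070 and 0.059 without untreated replicates 3 and 4, and 0.099 in a fit of the 8 Swhtr null libraries alone. It was 0.00069 with the replicate block, 0.00056 with the block within genotype and 0.0018 with DESeq2, and the treated library was higher in 4 of 4 same-numbered pairs. WT slices had 82.6, 81.0, 78.2 and 86.4 CPM treated, and 86.8, 87.1, 75.9 and 68.2 CPM untreated. The WT difference was 0.05 (SE 0.10). The lowest 2 of the 16 libraries were Swhtr null untreated replicates 4 and 3.

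Itpr2, the main IP3 receptor of cardiomyocytes, averaged 61.6 ± 4.27 CPM in Swhtr null treated and 58.6 ± 5.45 CPM in Swhtr null untreated slices (SD, n = 4 each). WT slices averaged 60.6 ± 2.54 CPM treated and 60.8 ± 4.63 CPM untreated. Slc8a1, the exchanger, averaged 70.3 ± 9.51 CPM in Swhtr null treated and 66.3 ± 4.24 CPM in untreated slices. Its WT means were 70.4 ± 4.87 CPM treated and 68.6 ± 4.46 CPM untreated. For Camk2d, the calcium/calmodulin kinase, the means were 83.6 ± 4.56 CPM in Swhtr null treated and 77.1 ± 2.11 CPM in untreated slices. Its WT means were 82.5 ± 6.16 CPM treated and 79.6 ± 4.36 CPM untreated. The groups overlapped for all 3 genes, and their Swhtr null log2 fold changes were 0.07 (Itpr2, SE 0.07), 0.08 (Slc8a1, SE 0.08) and 0.12 (Camk2d, SE 0.06).

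In Swhtr null slices the markers of several other cell types differed too, beside Cacna1c, Atp2a2 and Itpr1. All 12 macrophage and monocyte markers were lower in treated libraries, 4 at an unadjusted p under 0.05, with sums of 4099 to 10412 CPM, against 8189 to 13289 CPM in untreated ones. Of the 10 fibroblast markers, 9 were higher, with sums of 25646 to 33613 CPM treated and 23551 to 28104 CPM untreated. At an unadjusted p under 0.05, 4 of them were higher, and 1 was called. Of 10 endothelial markers 8 were higher, 3 at that level. Among 9 Schwann cell and neuronal markers 6 were higher, 4 at that level and 1 called. Of all genes, 8.69% were higher and 7.84% lower at that level, and 0.621% were called. Their part in the 3 differences was not tested.

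**Figure D2:**
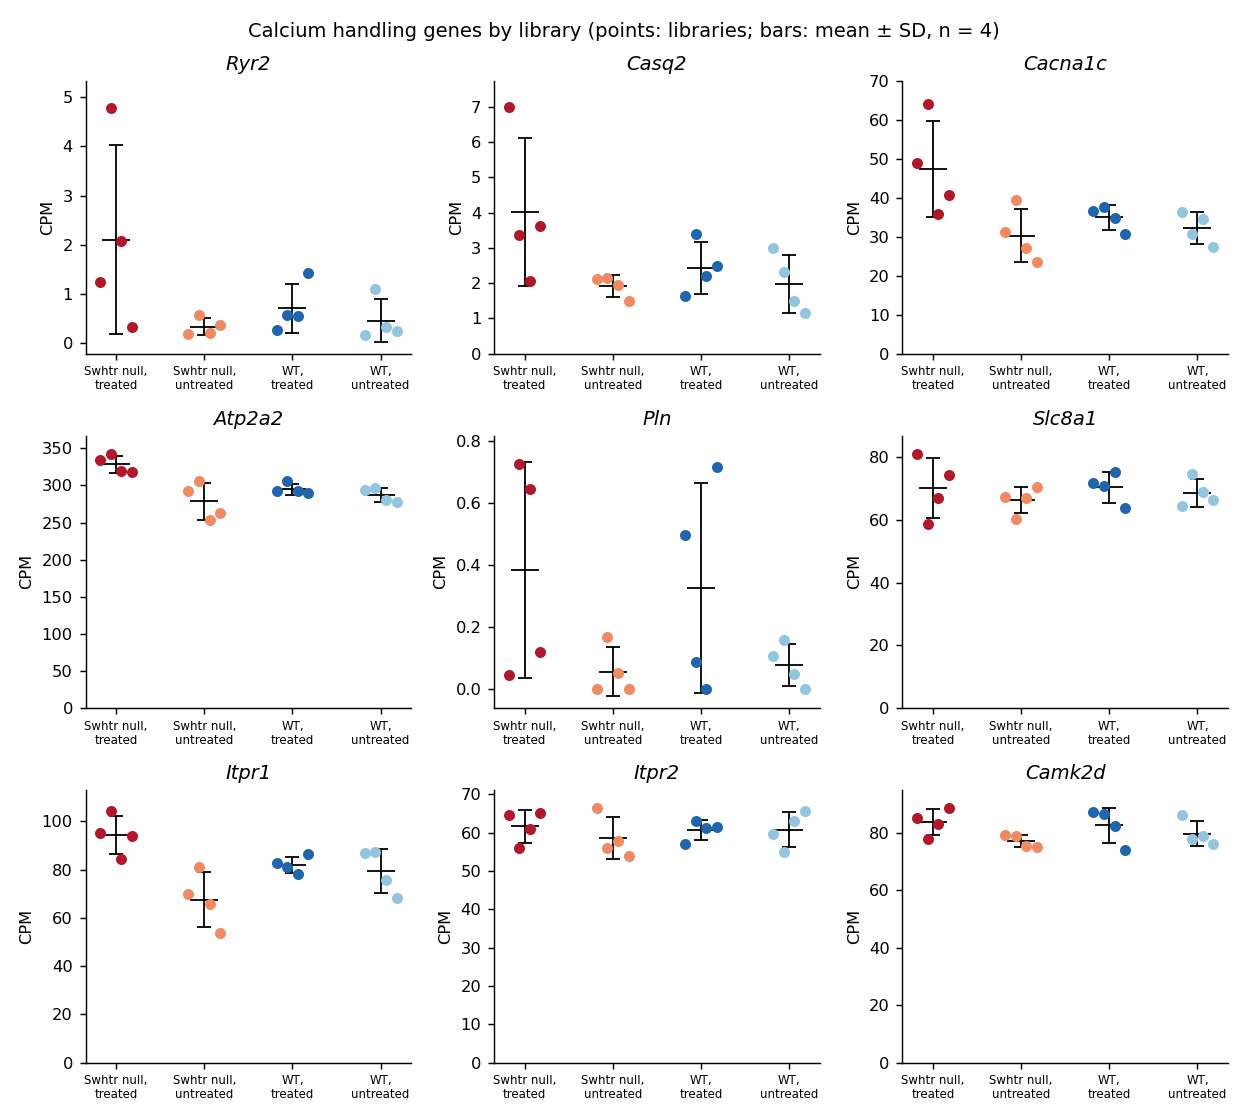
CPM of the 9 genes in each library by genotype and treatment, with a linear axis per gene. Points are libraries in the order of their replicate numbers, and bars give each group's mean with its SD. Atp2a2 and Itpr1 of the Swhtr null groups do not overlap, whereas Ryr2 and Pln are widely spread within the treated groups, up to 4.79 CPM for Ryr2.

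In WT slices, treated against untreated, 8 of the 9 genes had a positive log2 fold change and 1 a negative one. edgeR called 0 of 9, as it called 0% of all genes, and 0 of 9 were past an unadjusted p of 0.05 in either direction, against 2.62% of genes higher. DESeq2 and limma also called 0 of the 9. The median log2 fold change was 0.05, against 0.01 over all genes. The largest values were those of the 2 genes with the fewest counts, Pln (2.02) and Ryr2 (0.64), and both were highest in WT treated replicate 4. Without that library the Ryr2 value was 0.03 and that of Pln 1.28. The 15 cardiomyocyte markers had 14 higher in WT treated slices, 4 at an unadjusted p under 0.05. Myh6 was at 2.71, 3.82, 0.292 and 10.1 CPM there, against 0.367, 0.158, 0.654 and 0.193 CPM in WT untreated slices. Their part was not tested.

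**Figure D3:**
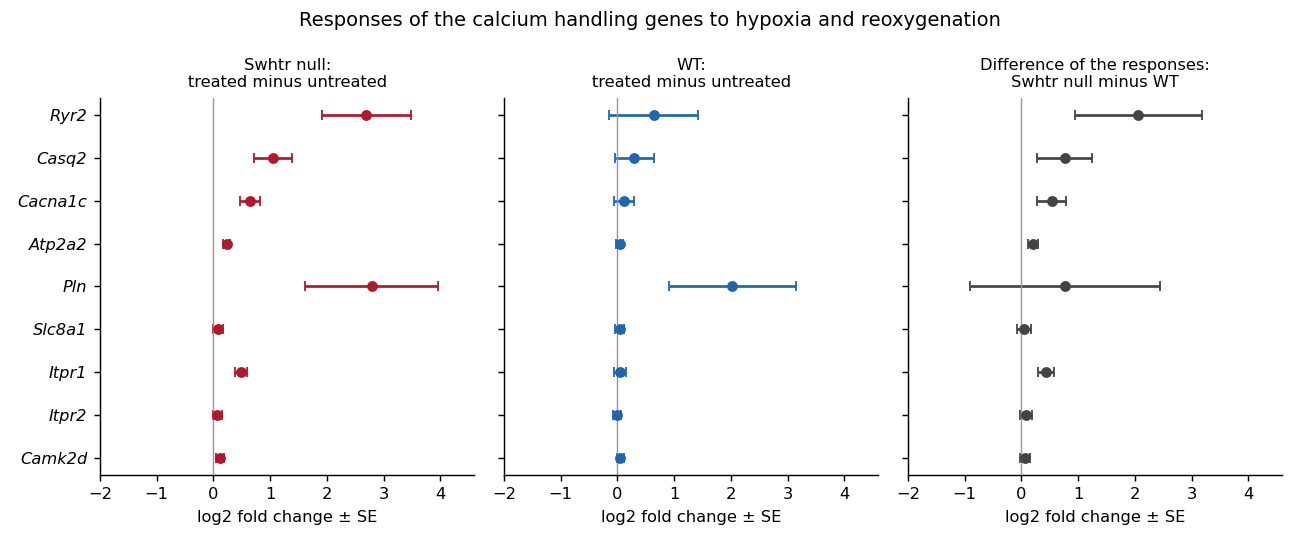
Log2 fold change with its standard error for the 9 genes, from the edgeR fit of 16 libraries: treated minus untreated in Swhtr null slices, the same in WT slices, and the difference of the 2 responses. In Swhtr null slices all 9 are above 0, and the errors of Ryr2 (0.78) and Pln (1.17) are the widest.

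Untreated Swhtr null and WT slices were compared to ask whether the mutation alone shifts these genes. All 9 log2 fold changes were slightly negative, with a median of -0.05, and edgeR called 0 of 9, against 0.1% of all genes. DESeq2 and limma called 0 as well. Only Itpr1 had an unadjusted p under 0.05 (67.6 ± 11.4 CPM in Swhtr null and 79.5 ± 9.17 CPM in WT slices, SD, n = 4 each), where 2.64% of all genes were lower. Its log2 fold change was -0.23 (SE 0.10, adjusted p = 0.90 from edgeR), and the groups overlapped.

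After treatment, 8 of 9 genes were higher in Swhtr null than in WT slices, with a median log2 fold change of 0.20. edgeR called 0 of 9, against 0.0921% of all genes, and DESeq2 and limma called 0. At an unadjusted p under 0.05, 4 of 9 were higher, against 2.88% of genes: Ryr2 (1.57, SE 0.70), Casq2 (0.72, SE 0.33), Cacna1c (0.44, SE 0.18) and Atp2a2 (0.16, SE 0.06). The adjusted p of each was 0.77. Only Atp2a2 had groups that did not overlap, at 318 CPM or more in Swhtr null and 306 CPM or less in WT slices, which 1.7% of genes did in that direction. Without Swhtr null treated replicate 2 the Ryr2 value was 0.78 and that of Cacna1c 0.26. Without replicates 2 and 3 the Ryr2 value was 0.12, and without replicate 1 the Casq2 value was 0.31. The comparisons between genotypes share libraries with the responses above and are not independent of them.

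The responses themselves were set against each other by the interaction of genotype and treatment. All 9 differences were positive, with a median of 0.44. edgeR called 0 of 9, as it called 0% of all genes, and DESeq2 and limma called 0. At an unadjusted p under 0.05, 2 of 9 were higher, against 3.26% of genes. These were Itpr1 (0.44, SE 0.14, unadjusted p = 0.0072) and Atp2a2 (0.20, SE 0.09, unadjusted p = 0.036), each with an adjusted p of 0.71. Cacna1c had a difference of 0.53 (SE 0.25, adjusted p = 0.71). With the block within genotype it was 0.52 with an adjusted p of 0.019 from edgeR, still below the fold threshold. Itpr1 then had an adjusted p of 0.082. That block also covers WT slices, where same-numbered libraries did not all deviate together. Ryr2 had a difference of 2.06 (SE 1.12, adjusted p = 0.73), which was 0.59 without Swhtr null treated replicates 2 and 3.

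The rest of the calcium machinery was examined with 51 further genes, of which 50 were tested. In Swhtr null slices 29 had a positive and 21 a negative log2 fold change, with a median of 0.03. Past an unadjusted p of 0.05, 9 were higher and 6 lower, against 8.69% and 7.84% of all genes, and edgeR called 0 with both thresholds. At adjusted p alone 1 of 50 passed, a share near the 2.18% of all genes. It was Atp2b4, a calcium pump of the plasma membrane. It was at 51.4, 74.6, 58.8 and 59.0 CPM in treated and 47.7, 44.2, 38.0 and 33.4 CPM in untreated slices, without overlap (log2 fold change 0.58, just under the threshold, SE 0.13, adjusted p = 0.034). Camk2a, a kinase isoform best known from neurons, had a log2 fold change of 0.61 (SE 0.17, adjusted p = 0.056) and did not overlap either. Mcub, the inhibitory subunit of the mitochondrial calcium uniporter, had one of -0.33 (SE 0.10, adjusted p = 0.11). Orai2, a store-operated channel, had one of 0.26 (SE 0.08, adjusted p = 0.11). The groups of Mcub and Orai2 did not overlap either. Of all genes, 3.54% had every treated library above every untreated one, as Atp2b4, Camk2a and Orai2 did. These genes are named for their small p.

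By role, the 12 genes of SR release and its junction with the surface membrane had 2 higher and 1 lower past an unadjusted p of 0.05, where 8.69% of all genes were higher and 7.84% lower. The 6 surface channel genes had 3 higher and 0 lower. In the 6 exchange and extrusion genes 1 was higher and 1 lower, and in the 12 of calmodulin, kinases and phosphatases 2 were higher and 2 lower. Of the 5 genes of mitochondrial uptake 0 were higher and 2 lower, and of the 6 of IP3 receptors and store-operated entry 1 was higher. In the 3 tested genes of SR uptake there were 0. With 3 to 12 genes a list, these counts describe the lists and set none apart from other genes. In WT slices 0 of the 50 reached that level. For treated Swhtr null against WT slices, Cacnb2, an L-type channel subunit, had a log2 fold change of 0.76 (SE 0.32). Jph2, which ties the SR to the surface membrane in cardiomyocytes, had one of 0.36 (SE 0.15), Atp2a1 one of 1.14 (SE 0.52), and S100a1, a calcium sensor that binds SERCA2, one of -0.32 (SE 0.12). The adjusted p of these 4 was 0.77.

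**Figure D4:**
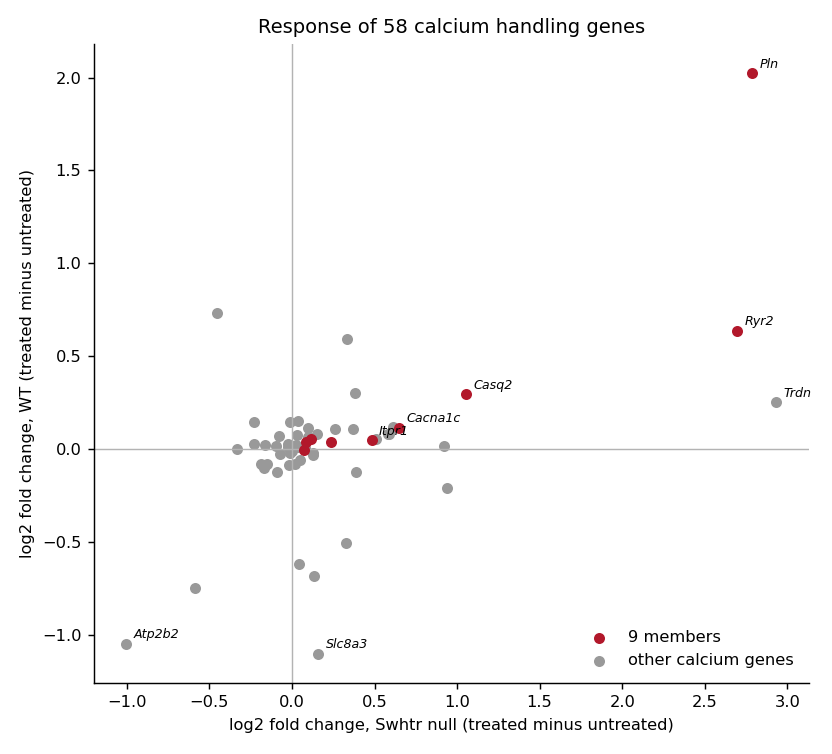
Response to treatment (log2 fold change, treated minus untreated) in Swhtr null (x axis) and WT (y axis) slices for the 9 genes (red) and other calcium genes (grey). Sln, with counts in 1 library, is not drawn. The point farthest from the others is Pln, at 2.79 in Swhtr null and 2.02 in WT slices.

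The pattern over the 16 libraries differed among the 9 genes. For each, the 3 genes with the highest Pearson correlation of log2 CPM were sought among 12434 genes. These correlations describe libraries that share mice and culture, and choosing the highest of many inflates them. Ryr2 was most like Tnnt2 (r = 0.88, Spearman rho = 0.82), Vgll4, a cofactor of TEAD factors (0.85), and Actc1, cardiac alpha-actin (0.85). Without the 2 libraries farthest from the median of Ryr2, Swhtr null treated 2 and 3, the r with Tnnt2 was 0.76. Ryr2 had r = 0.85 with the mean level of the cardiomyocyte markers. It had 0.66 with that of the fibroblast and -0.67 with that of the macrophage and monocyte markers. Pln was most like Actc1 (0.90), Dsp, the desmosomal protein desmoplakin (0.90), and Ttn, the sarcomeric spring titin (0.89). Casq2 was most like Aff3 (0.91), Lmod1, an actin nucleator of smooth muscle (0.90), and Pbxip1 (0.88), and had r = 0.88 with the mean level of the smooth muscle and pericyte markers and 0.24 with that of the cardiomyocyte markers.

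Cacna1c was most like the procollagen protease gene Adamts2 (0.96), Il1r1 (0.96) and Dzip1 (0.95), and had r = 0.90 with the mean level of the fibroblast and -0.88 with that of the macrophage and monocyte markers. Itpr1 was most like Mpdz (0.98), the spectrin gene Sptbn1 (0.97) and the basement membrane collagen Col4a1 (0.97). Its r was 0.84 with the fibroblast, 0.83 with the smooth muscle and pericyte, and -0.71 with the macrophage and monocyte markers. Atp2a2 was most like Nod1 (0.96), Sorbs3 (0.94) and Dlg5 (0.93). It had r = 0.86 for the fibroblast, 0.79 for the smooth muscle and pericyte, and -0.73 for the macrophage and monocyte markers. Slc8a1 was most like 3 genes of mitosis and proliferation, Incenp (0.92), Kif4 (0.90) and Mki67 (0.90). Camk2d was most like Phf19 (0.89), and Itpr2, with the weakest likeness, most like Igf2r (0.81). For deviations from the group means the same pairs had r between 0.75 and 0.97, as values over the libraries by which the pairs were chosen.

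**Figure D5:**
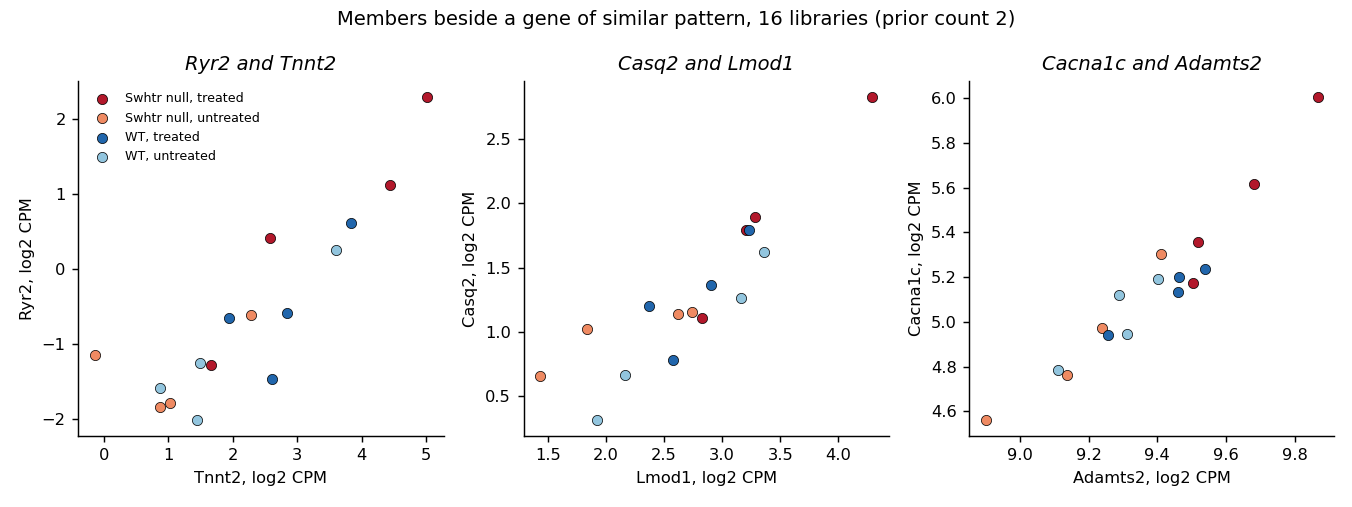
Log2 CPM of Ryr2, Casq2 and Cacna1c against a gene of similar pattern, Tnnt2, Lmod1 and Adamts2, with 1 point per library and colours for the 4 groups. Swhtr null treated libraries are highest in each panel, a different library for Casq2 (7.01 CPM) than for Ryr2 (4.79 CPM).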

How the data were processed

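RNA of 16 heart slice cultures was sequenced as paired ends. The authors aligned reads with STAR to mm10 and counted them per Ensembl gene with GenomicAlignments, and the deposited values are raw counts. The strand setting is not given in the sources used here, and the paper and labels name different library kits. Positions, exon lengths and symbols are from GENCODE M21 (GRCm38), which placed 55227 of 55487 identifiers.

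The 9 genes and all gene and marker lists were chosen with earlier results of these data known. Genes with a total under 10 counts were dropped, and the remaining 24971 were fitted in R 4.3.3 with edgeR 4.0.16 (TMM, 4 group means, 12 residual degrees of freedom, robust quasi-likelihood test). P-values were adjusted over all genes by Benjamini-Hochberg. Standard errors are the fold change over the root of the F statistic. DESeq2 1.42.0, limma 3.58.1, other filters and scalings, a replicate block shared by both genotypes and each library left out were alternatives. No pair of libraries agreed within sampling noise (lowest chi-square per degree of freedom 7.25). The procedure was tested on simulated data.

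Named besides the 9 are their paralogs, the 4 other calcium genes with the smallest p per comparison, the 3 most alike genes (mean of at least 1 CPM), and markers set beside a result. Itpr1 and Atp2a2 lacked a promoter window, and 1 listed gene, Strit1, was not matched. Replicate numbers come from the labels. Deviations of same-numbered Swhtr null libraries from their group means correlated at 0.15, 0.59, 0.26 and 0.40. They pass the rule applied, over 0.1 in every pair. Swhtr null treated replicate 3 correlated more, at 0.33, with an untreated library of another number. In WT slices the rule failed (-0.11, -0.08, 0.16 and 0.32). Same-numbered untreated libraries of the 2 genotypes, which come from different mice, correlated at 0.10, 0.38, 0.0076 and 0.37. The numbers thus do not show which libraries share a mouse.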

Additional observations from a re-analysis of the deposited data

Results flagged for a closer look

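Of 129 groups of 4 libraries examined over the 9 genes and the other named calcium genes, 4 held a library far from the other 3 by Dixon's gap criterion, and chance alone flags about 1 in 20. None concerned the 9 genes, and 3 were in Swhtr null treated replicate 2. Sln, the atrial inhibitor of SERCA, was at 2.32 CPM there and had no count in the other 15 libraries, where 0 allows up to 0.169 CPM. Mcub was at 19.7 CPM there, against 25.9 to 26.5 CPM in the other 3 libraries of the group. Cacna1h, a T-type calcium channel, was at 15.2 CPM there, against 3.98 to 5.70 CPM. Atp2b2 was at 0.0458 CPM, a single count, in Swhtr null treated replicate 1, and at 0 in the other 3.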

How the results depend on the processing

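For the Swhtr null response, edgeR called 155 genes and 0 of the 9. The counts were 544 and 2 with no fold threshold, 464 and 3 with DESeq2, 450 and 2 with the replicate block, and 616 and 3 with the block within genotype. Without treated replicates 2 and 3 they were 233 and 1. In a fit of the compared libraries alone 6 genes were called. Leaving out single libraries gave 22 to 575 genes and 0 to 2 of the 9. The block within genotype and the omission of replicates 2 and 3 together were chosen after seeing the data. For the WT response, with 0 genes called, the count was 1 with no fold threshold, in the compared libraries alone, with no filter and without Swhtr null treated replicates 2 and 3. It was 9 with DESeq2, 3 with limma, 2 with the replicate block, 19 with the block within genotype, and 0 to 3 with single libraries left out. For treated Swhtr null against WT slices DESeq2 called 39 genes, against 23. For the difference of the responses the block within genotype called 52, against 0. The cause of these shifts was not tested. The block changed no other call among the 9. All 225 alternative values of the 9 Swhtr null changes kept their direction. So did 221 of 225 in WT, 207 of 216 for untreated and 198 of 216 for treated slices between genotypes, and 214 of 216 for the difference. Depth limits Pln and Ryr2, with 83 and 355 counts in all.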

Other observations

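Paralogs of the 9 genes also set Swhtr null treated replicate 2 apart. Atp2a3, the SERCA gene of blood and endothelial cells, was at 12.7 CPM in that library and at 19.1 to 30.7 CPM in the other 15. Itpr3 was at 44.0 CPM there and at 47.5 to 62.4 CPM elsewhere. Csf1r, the growth factor receptor of macrophages, was at 57.4 CPM there and at 152 to 410 CPM elsewhere. The next lowest values of Csf1r (152 CPM) and Itpr3 (47.5 CPM) were in the same-numbered untreated library, Swhtr null untreated replicate 2. Atp2a3 was at 20.4 CPM in that library, not the next lowest. These values were picked after they were seen, and no test was made.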
